A study of Rattus norvegicus with 9 samples.

Results

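The amino acid and transmitter transporters described here are 53 genes of 14506 measured on whole-transcript arrays of cultured adult rat cells. They are all genes whose array feature names a single symbol of the solute carrier families Slc1, Slc3, Slc6, Slc7, Slc36, Slc38 and Slc43. No expression value entered this choice, and each of the 53 had 1 such feature. Every symbol matched the RefSeq gene table by its gene identifier.

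All cells came from adult rats of the Sprague Dawley strain, and all were grown in culture before RNA was taken. The first group holds Schwann cells isolated from the sciatic nerve, plated in Schwann cell growth medium, passaged and collected at confluence. The second holds Schwann cells obtained by plating dorsal trunk SKPs, short for skin-derived precursors, in the same medium, passaged and collected in the same way. The third holds the SKPs, which were kept as floating spheres in proliferation conditions and collected without plating. Each group has 3 arrays, which the design text calls independent samples. The labels give no genotype, treatment agent or exact age. They name dermis as the tissue of every array, the nerve cells included, and they give the SKP arrays as a new analysis of samples deposited before, so an array batch and the SKP group cannot be told apart. Growth as spheres against growth on a dish and the medium also differ between SKPs and both Schwann cell groups.

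Amino acid carriers move amino acids across the plasma membrane and the lysosomal membrane. Some use the sodium gradient to load the cell, as the Slc1, Slc6 and Slc38 families do. Others swap amino acids across the membrane, as the Slc7 light chains do when they are bound to an Slc3 heavy chain. Slc36 carriers run on protons, and some Slc43 members let amino acids pass along their gradient. In nervous tissue the Slc1 glutamate carriers and the Slc6 carriers of GABA, glycine and monoamines end transmitter signals, and glial cells take up much of the released glutamate and GABA. Slc36a2, also called tramdorin, has been described in myelinating Schwann cells.

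Levels are log2 expression values as deposited, so a difference of 1 is a doubling. The arrays did not share a scale. Each array's median feature lay between 6.82 and 6.87 for nerve Schwann cells, between 6.33 and 6.44 for SKP-derived Schwann cells and between 6.2 and 6.27 for SKPs. As deposited, the median gene differed from SKPs by 0.46 in nerve and by -0.01 in SKP-derived Schwann cells, and SKP-derived differed from nerve Schwann cells by -0.45. After cyclic loess, a rescaling that removes level-dependent shifts between arrays, these medians were 0.01, 0.02 and -0.01. A gene is therefore said below to have risen or fallen only where limma gave an adjusted p under 0.05 with the same sign under 4 scalings: as deposited, centred on the array median, cyclic loess and quantile normalisation. A gene that passed in some scalings only is given by its values. Where no scaling is named, a difference, its standard error (SE) and its adjusted p are from the limma fit to the values as deposited.

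The labelled cell types were checked against marker genes. Of 8 measured Schwann cell markers, 7 rose in nerve Schwann cells and 7 in SKP-derived Schwann cells. Their mean level was 10.73 to 10.81 in nerve arrays, 9.71 to 10.64 in SKP-derived arrays and 5.42 to 5.72 in SKPs. The mean of 12 dermal mesenchyme markers was 8.75 to 9.87, 8.25 to 10.02 and 10.43 to 12.01 in the same order. Array 2 was the highest of its group on this list both in nerve Schwann cells (9.87) and in SKP-derived Schwann cells (10.02). The mean of 10 macrophage markers was 8.35, 6.38 and 5.64 in SKP arrays 1 to 3, against 5.90 to 5.99 in nerve and 5.21 to 5.49 in SKP-derived arrays. Under all 4 scalings 8 of the 12 mesenchyme markers fell in nerve and 9 in SKP-derived Schwann cells, and 1 of the 10 macrophage markers fell in each. Uneven arrays are named beside some of the transporters below, not beside all of them.

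Transporters that rose in both kinds of Schwann cell were led, in order of their difference in nerve cells, by the GABA carrier Slc6a11, the proton-coupled carrier Slc36a2, the glutamine carrier Slc38a1 and the glutamate carrier Slc1a1. Those that fell were led by Slc43a3, Slc7a7, Slc43a2 and the neutral exchangers Slc1a4 and Slc1a5. In nerve Schwann cells 13 members rose and 9 fell against SKPs, where 22.3% of all genes rose and 14.8% fell. In SKP-derived Schwann cells 9 rose and 10 fell, where 17.8% of all genes rose and 17.7% fell. The shares of members that changed were thus near those of all genes, at 24.5% and 17% in nerve and 17% and 18.9% in SKP-derived Schwann cells. The comparisons with SKPs use the same SKP arrays, so their values are given side by side and not as separate support. As deposited alone, 28 members were called higher and 9 lower in nerve Schwann cells (all genes: 49.7% and 14.9%), and 11 higher and 12 lower in SKP-derived Schwann cells (all genes: 19.3% and 22.3%). Of the members called in nerve cells, 75.7% were higher as deposited, 59.4% after median centring, 48.3% after cyclic loess and 50% after quantile normalisation. For all genes these shares were 77%, 63.3%, 50.6% and 52.3%. Of the 31 members whose mean level was below that of the median gene, 20 were called higher as deposited and 6 under all 4 scalings, while of the 22 brighter members 8 and 7 were. This split by level was not made over all genes, so it cannot be read as particular to the transporters. Leaving out 1 array added calls under all 4 scalings beside those given with the genes below. In nerve cells Slc1a7, Slc36a1, Slc38a5 and Slc6a7 were higher without SKP array 3, Slc36a1 and Slc36a3 without SKP-derived array 2, and Slc6a4 without SKP array 1. In SKP-derived cells Slc36a3 was higher without SKP-derived array 2, Slc38a3 without SKP array 2 or SKP-derived array 1, Slc38a5 without SKP array 3 and Slc6a19 without SKP array 1. Slc38a2 and Slc6a2 were lower there without SKP array 1, and Slc38a6 without SKP array 2.

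**Figure D1:**
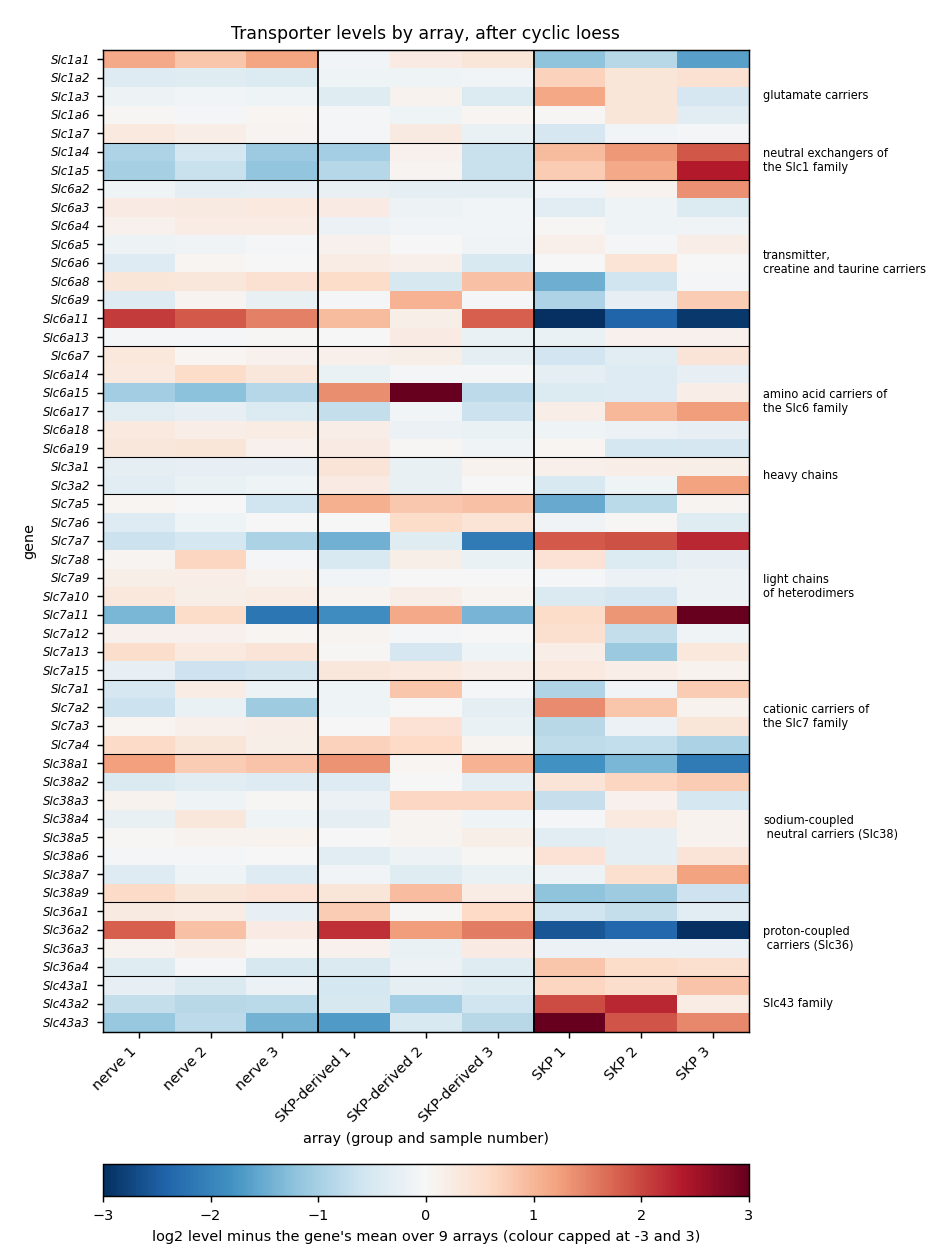
Each row is a transporter and each column an array. Colour gives the log2 level after cyclic loess minus the mean of that gene over the 9 arrays. The rows of Slc6a11, Slc36a2 and Slc38a1 are low in the 3 SKP arrays, those of Slc43a3, Slc7a7 and Slc1a5 are high there, and Slc7a11 and Slc6a15 vary inside groups.

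Promoter sequence is shown first for 3 members with a large rise (assembly GRCr8, 5′ to 3′ on the strand of the gene, up to 250 bases before the start). Each RefSeq window was cut to the bases that lie outside the gene itself, which left 242 bases for Slc36a2. Slc6a11 and Slc36a2 had the largest rises, and Slc7a5 had the larger rise of the 2 light chains that rose in SKP-derived Schwann cells. Capitals mark matches, on either strand, to CACGTG, the E-box, and TGATGNAA, the core of the element that C/EBP and ATF factors bind when amino acids are scarce. The motifs do not overlap each other in these windows. The Slc6a11 window is chr4:148853307-148853556 on the plus strand, that of Slc36a2 is chr10:39806782-39807023 on the minus strand, and that of Slc7a5 is chr19:66872413-66872662 on the minus strand.
Slc6a11: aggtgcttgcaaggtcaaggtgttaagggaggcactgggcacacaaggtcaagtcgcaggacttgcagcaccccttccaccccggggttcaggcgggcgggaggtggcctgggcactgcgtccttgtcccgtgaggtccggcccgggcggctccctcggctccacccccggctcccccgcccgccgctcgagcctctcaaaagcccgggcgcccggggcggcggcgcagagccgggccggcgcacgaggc
Slc36a2: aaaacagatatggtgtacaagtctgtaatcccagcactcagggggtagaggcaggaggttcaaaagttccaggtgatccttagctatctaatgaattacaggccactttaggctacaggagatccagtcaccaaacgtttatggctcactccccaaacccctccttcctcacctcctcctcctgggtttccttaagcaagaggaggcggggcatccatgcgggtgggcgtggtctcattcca
Slc7a5: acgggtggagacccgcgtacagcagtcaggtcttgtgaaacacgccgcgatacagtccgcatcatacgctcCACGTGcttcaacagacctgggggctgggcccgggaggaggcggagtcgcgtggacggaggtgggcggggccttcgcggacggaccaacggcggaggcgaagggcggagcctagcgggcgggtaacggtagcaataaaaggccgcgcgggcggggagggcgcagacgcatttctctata

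The windows differ in base composition. G and C make up 73.6% of the Slc6a11 window and 66.8% of the Slc7a5 window, with 25 and 31 CG pairs. The cut Slc36a2 window has 51.7% and 4 CG pairs, near the medians of 51.2% and 5 over all 33469 RefSeq promoter windows, which were not cut. The E-box is in the Slc7a5 window, beginning 179 bases before the start. RefSeq windows were given for 41 of the 53 members, and 6 of the 41 (14.6%) hold CACGTG, against 6.18% of the 27457 genes with a window: Slc1a4, Slc1a6, Slc36a1, Slc38a7, Slc43a1 and Slc7a5. TGATGNAA is in 3 of the 41 (7.32%), against 3.58% of those genes: Slc38a1, Slc1a4 and Slc7a1. For these the 30 bases around the match are shown, from chr7:129681525-129681554 (minus strand), chr14:98761779-98761808 (minus strand) and chr12:11664447-11664476 (plus strand).
Slc38a1: gggggaaactcTGATGCAAccaaccagtcc
Slc1a4: cgcctccagcgTTGCATCAtccagccagca
Slc7a1: cggcgcgcggcTGATGAAAccggctcggat

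A match describes the letters only. The 3 genes that share the motif did not move together: Slc38a1 rose, Slc1a4 fell, and Slc7a1 passed in no scaling.

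**Figure D2:**
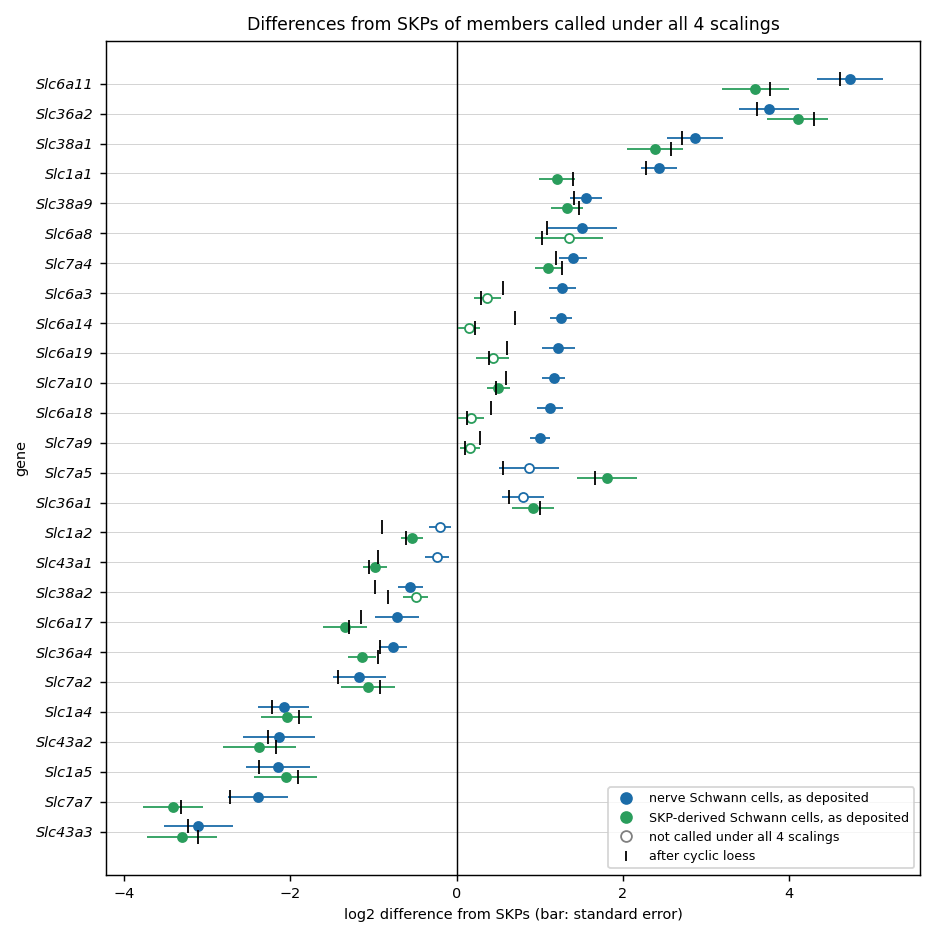
Points give the log2 difference from SKPs as deposited for nerve (blue) and SKP-derived (green) Schwann cells, bars the standard error of the limma fit, and black ticks the difference after cyclic loess. The 26 members shown changed under all 4 scalings in at least 1 of these comparisons, and open points mark those that did not in that comparison. Slc6a11 and Slc36a2 lie farthest to the right and Slc43a3 and Slc7a7 farthest to the left.

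Of the 5 glutamate carriers of the Slc1 family, 1 rose in nerve Schwann cells and 0 fell. In SKP-derived Schwann cells 1 rose and 1 fell. Slc1a1, which takes up glutamate and cysteine, had levels of 8.87, 8.63 and 9.01 in nerve Schwann cells, 7.35, 7.59 and 7.91 in SKP-derived Schwann cells and 6.45, 6.74 and 6.03 in SKPs. The 3 groups did not overlap, and the SKP-derived cells lay between the others. The rise was 2.43 in nerve (SE 0.22, limma adjusted p = 3.04e-05) and 1.21 in SKP-derived cells (SE 0.22, limma adjusted p = 0.00178). Slc1a2 and Slc1a3 encode the glutamate carriers that astrocytes use most. Slc1a2 was at 5.85, 5.85 and 5.78 in nerve, 5.52, 5.56 and 5.39 in SKP-derived Schwann cells and 6.22, 5.93 and 5.93 in SKPs. It fell by 0.54 in SKP-derived Schwann cells (limma adjusted p = 0.00885), but leaving out any of 6 single arrays (nerve 1, 2 or 3, SKP-derived 1 or 3, or SKP 1) ended this, with a largest limma adjusted p over the scalings of 0.0509 to 0.0682. In nerve cells it differed by -0.20 and was not called as deposited, but was called lower in the 3 rescalings (-0.89 after cyclic loess, limma adjusted p = 0.000323). Slc1a3 was at 6.34, 6.40 and 6.33 in nerve, 5.58, 6.09 and 5.39 in SKP-derived Schwann cells and 7.04, 6.27 and 5.31 in SKPs, and was called in no scaling. Its SKP values spread widely and overlapped both other groups, and without SKP array 3 it was lower by 0.97 in SKP-derived cells (difference -0.97, limma adjusted p = 0.0169, and at most 0.0255 in the other scalings). Slc1a6 and Slc1a7, best known from the cerebellum and the retina, had higher means in nerve cells as deposited (6.27 and 6.66, against 5.59 and 5.62 in SKPs), but after cyclic loess they differed from SKPs by -0.01 and 0.41.

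The neutral exchangers of the family, Slc1a4 and Slc1a5, fell in both kinds of Schwann cell. Slc1a5, which brings glutamine into the cell in exchange for other neutral amino acids, was at 6.47, 6.84 and 6.34 in nerve, 6.27, 7.15 and 6.5 in SKP-derived Schwann cells and 8.08, 8.38 and 9.63 in SKPs. Slc1a4, an exchanger of serine, alanine and cysteine, was at 7.79, 8.26 and 7.75, at 7.46, 8.48 and 7.98, and at 9.61, 9.89 and 10.56. For both genes every SKP array lay above every Schwann cell array, SKP array 3 was highest, and array 2 was the highest of each Schwann cell group. Slc1a5 fell by 2.15 in nerve (SE 0.38, limma adjusted p = 0.00103) and by 2.06 in SKP-derived cells (SE 0.38, limma adjusted p = 0.00225). Without SKP array 3 the differences were -1.68 and -1.59 and both calls were kept. Slc1a4 fell by 2.08 (SE 0.31, limma adjusted p = 0.000371) and fell by 2.04 (SE 0.31, limma adjusted p = 0.00066).

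Of the 9 carriers of transmitters, creatine and taurine, 3 rose and 0 fell in nerve Schwann cells, and 1 rose and 0 fell in SKP-derived Schwann cells. Slc6a11 had the largest difference from SKPs. It encodes a GABA carrier known from astrocytes. Its level was 10.52, 10.33 and 10.07 in nerve Schwann cells, 9.12, 8.24 and 10.14 in SKP-derived Schwann cells and 5.31, 5.89 and 5.52 in SKPs. The Schwann cell arrays were far above the SKPs, and array 2 was the lowest of the SKP-derived group. The rise was 4.73 in nerve (SE 0.40, 26.6-fold, limma adjusted p = 2.42e-05) and 3.59 in SKP-derived cells (SE 0.40, 12.1-fold, limma adjusted p = 0.000124). Slc6a8, the creatine carrier, was at 12.11, 12.12 and 12.27 in nerve, 12.25, 11.16 and 12.62 in SKP-derived Schwann cells and 9.89, 10.72 and 11.35 in SKPs. It rose by 1.51 in nerve cells (SE 0.41, limma adjusted p = 0.00973), where the groups did not overlap. In SKP-derived cells array 2 lay below SKP array 3, and the difference of 1.35 was called in 3 of the 4 scalings (limma adjusted p = 0.0651 after cyclic loess). Without SKP-derived array 2 it was 1.78 and was called under all 4, as it was without SKP array 3 (1.70). The nerve call ended in at least 1 scaling without any of 6 single arrays (nerve 1, 2 or 3, SKP-derived 1, or SKP 1 or 2), with a largest limma adjusted p of 0.0515 to 0.232.

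Slc6a6, the taurine carrier, was at 10.48, 10.97 and 10.97 in nerve, 10.99, 10.80 and 10.37 in SKP-derived Schwann cells and 10.56, 10.92 and 10.59 in SKPs, with overlapping groups. Slc6a9, a glycine carrier of glia, was at 8.08, 8.63 and 8.35, at 8.17, 9.13 and 8.33, and at 7.48, 8.08 and 9.23, so the spread inside SKPs covered both other groups. Neither was called in any scaling. Slc6a3, the dopamine carrier, was at 6.35, 6.33 and 6.35 in nerve, 5.73, 5.39 and 5.22 in SKP-derived Schwann cells and 5.03, 5.29 and 4.91 in SKPs. It rose by 1.27 in nerve cells as deposited (limma adjusted p = 0.000182) and by 0.55 after cyclic loess, at a level below the median feature of those arrays. The serotonin carrier Slc6a4, the glycine carrier Slc6a5 and the GABA and betaine carrier Slc6a13 had nerve means of 6.48, 5.80 and 6.03 and SKP means of 5.54, 5.28 and 5.35, and were called as deposited but not under all 4 scalings. The noradrenaline carrier Slc6a2 passed in no scaling, and its SKP arrays were uneven (6.33, 6.51 and 7.74).

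Of the 6 amino acid carriers of the Slc6 family, 3 rose and 1 fell in nerve Schwann cells, and 0 rose and 1 fell in SKP-derived Schwann cells. The one that fell was Slc6a17, a carrier of neutral amino acids in synaptic vesicles. Its level was 6.63, 6.74 and 6.57 in nerve, 5.82, 6.44 and 5.82 in SKP-derived Schwann cells and 6.78, 7.56 and 7.76 in SKPs. It fell by 1.34 in SKP-derived cells (SE 0.26, limma adjusted p = 0.00304). The fall of 0.72 in nerve cells (limma adjusted p = 0.0362) was lost without any of nerve arrays 1 to 3 or SKP arrays 2 or 3 (largest limma adjusted p 0.0643 to 0.112). Slc6a14, Slc6a18 and Slc6a19, carriers best known from epithelia, rose in nerve cells by 1.25, 1.13 and 1.22 as deposited and by 0.70, 0.42 and 0.61 after cyclic loess. Their nerve means were 4.70, 5.76 and 6.81. The Slc6a18 call ended without nerve array 1, 2 or 3 or SKP array 2 or 3 (largest limma adjusted p 0.0609 to 0.101). The Slc6a19 call ended without nerve array 1 or 2 or SKP array 2 (0.0528 to 0.0784). The proline carrier Slc6a7 had means of 6.66, 5.94 and 5.70 in nerve, SKP-derived Schwann cells and SKPs and was called against SKPs in nerve cells alone, as deposited.

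Slc6a15, a carrier of branched-chain amino acids and proline, was the least even of all members inside 1 group. SKP-derived arrays 1 to 3 were at 6.81, 8.58 and 4.46, while nerve arrays were at 5.01, 4.78 and 5.13 and SKPs at 4.89, 4.96 and 5.44. SKP-derived arrays 1 and 2 were above every other array and array 3 was the lowest of all 9. It was called in no scaling, but without SKP-derived array 3 it was higher by 2.60 than in SKPs (limma adjusted p = 0.00282) and by 2.72 than in nerve cells (limma adjusted p = 0.00856). It is named here because of these values. Neuron markers, a list also picked after its values were seen, had means of 7.06, 7.57 and 6.28 in SKP-derived arrays 1 to 3. Their means were 6.76 to 7.14 in nerve arrays and 5.70 to 6.75 in SKPs. The markers were not alike across SKP-derived arrays 1 to 3. Nefl (12.63, 11.78 and 9.28) and Nefm (9.94, 9.97 and 7.11) were lowest in array 3. Snap25 (4.46, 7.26 and 5.13) and Stmn2 (5.65, 7.36 and 6.34) were lowest in array 1. Of the 7 markers, 1 rose and 1 fell in SKP-derived cells against SKPs, with a median difference of -0.26. The part of neuron markers in the Slc6a15 level was not tested.

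**Figure D3:**
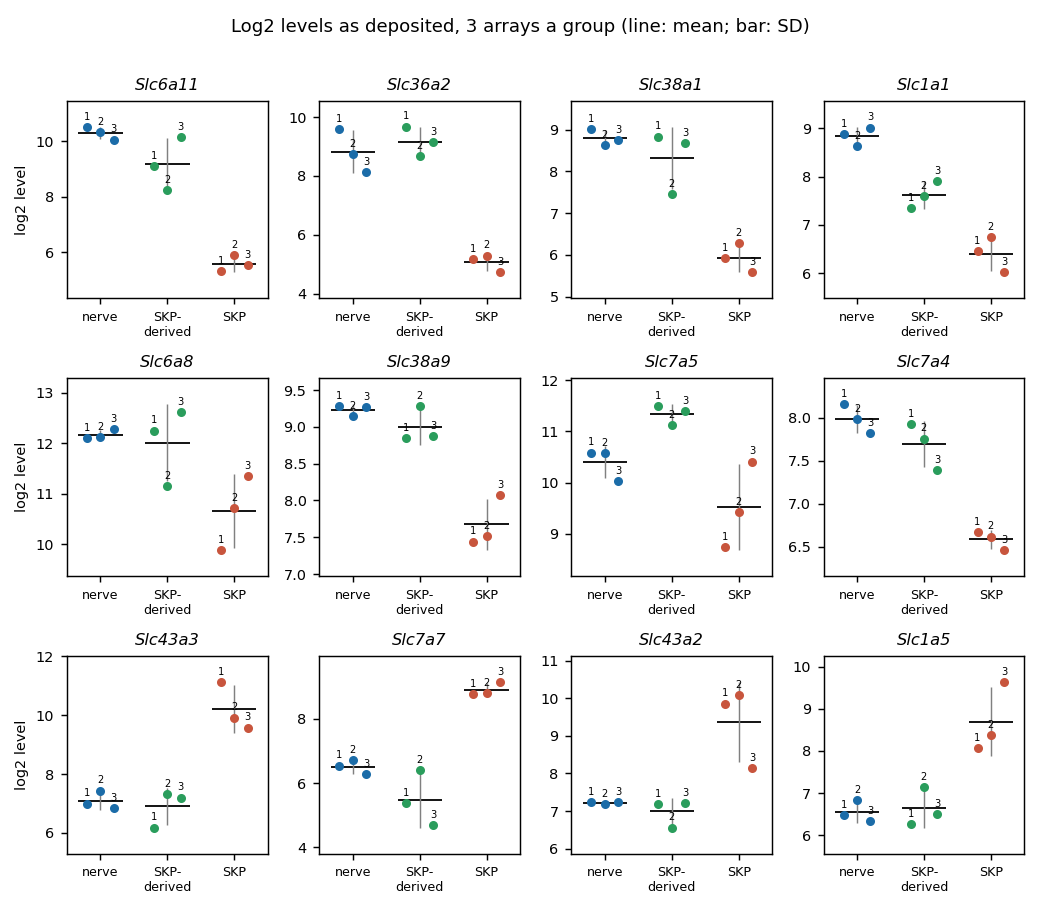
Panels show the log2 level as deposited on each array (numbered points), with the group mean (line) and SD (bar, n = 3). The SKP points lie below both Schwann cell groups for Slc6a11, Slc36a2, Slc38a1, Slc1a1, Slc38a9 and Slc7a4, and above them for Slc43a3, Slc7a7, Slc43a2 and Slc1a5.

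The heterodimeric exchangers pair a heavy chain of Slc3 with a light chain of Slc7. Slc3a2 is the heavy chain that most light chains share. Its level was 11.42, 11.58 and 11.68 in nerve, 11.95, 11.40 and 11.72 in SKP-derived Schwann cells and 10.91, 11.20 and 12.61 in SKPs. The SKP values lay on both sides of the Schwann cells, and it was called in no scaling. Slc3a1, the heavy chain of the kidney, had means of 5.09, 4.78 and 4.84, and was called lower in nerve cells after cyclic loess and quantile normalisation only.

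Among the 10 light chains, 2 rose and 1 fell in each kind of Schwann cell. Slc7a5, which imports leucine and other large neutral amino acids in exchange for glutamine, was at 11.49, 11.13 and 11.39 in SKP-derived Schwann cells, 10.59, 10.58 and 10.04 in nerve Schwann cells and 8.75, 9.42 and 10.41 in SKPs. The SKP-derived arrays were the highest 3 of the 9, and SKP array 3 reached the nerve level. Slc7a5 rose by 1.81 in SKP-derived cells (SE 0.36, 3.50-fold, limma adjusted p = 0.00324), and by 2.25 without SKP array 3. In nerve cells it was called in no scaling (difference 0.87, limma adjusted p = 0.057), but without SKP array 3 the difference was 1.31 and was called under all 4 (limma adjusted p = 0.00188, at most 0.0186 in the other scalings).

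Slc7a7, a light chain that exports cationic amino acids, was at 6.55, 6.70 and 6.27 in nerve, 5.37, 6.41 and 4.68 in SKP-derived Schwann cells and 8.77, 8.79 and 9.13 in SKPs. The SKP arrays were close to each other and above all others, and array 2 was the highest of the SKP-derived cells. It fell by 2.39 in nerve (SE 0.36, 5.24-fold, limma adjusted p = 0.000438) and by 3.41 in SKP-derived cells (SE 0.36, 10.6-fold, limma adjusted p = 9.7e-05). Slc7a7 is also known from macrophages, whose markers were uneven in the SKP arrays (8.35, 6.38 and 5.64). Without SKP array 1, where the marker mean was highest, the differences were -2.45 and -3.47. The part of macrophages in the Slc7a7 level was not tested. Slc7a10, a carrier of small neutral amino acids, was at 6.98, 6.84 and 6.85 in nerve, 6.23, 6.35 and 6.10 in SKP-derived Schwann cells and 5.67, 5.61 and 5.89 in SKPs. It rose by 1.17 in nerve cells (0.60 after cyclic loess). Its rise of 0.50 in SKP-derived cells was lost without any single array except SKP array 3 (largest limma adjusted p 0.0544 to 0.115). Slc7a9, the partner of Slc3a1, rose in nerve cells by 1.00 as deposited and 0.29 after cyclic loess, a call that ended in at least 1 scaling without 7 of the 9 arrays taken singly, all but SKP-derived 2 and SKP 1 (0.0574 to 0.14).

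Slc7a11, the cystine and glutamate exchanger that feeds glutathione synthesis, had the largest spread of any member in nerve Schwann cells (SD 1.40, n = 3) and in SKPs (SD 1.35, n = 3), and the next largest after Slc6a15 in SKP-derived Schwann cells (SD 1.59, n = 3). Its level was 5.86, 7.81 and 5.11 in nerve, 4.97, 7.94 and 5.45 in SKP-derived Schwann cells and 7.53, 8.24 and 10.14 in SKPs. Array 2 of each Schwann cell group reached the SKP range, and SKP array 3 stood above all. The difference of -2.38 in nerve cells was not called as deposited (SE 0.95, limma adjusted p = 0.0509) but was called in the other 3 scalings (0.0373 to 0.0473). Without nerve array 2 it was -3.15 and was called under all 4 scalings (limma adjusted p = 0.0206 as deposited), and it was also called under all 4 without SKP array 1 (-2.93) or without SKP-derived array 2. In SKP-derived cells the difference was -2.51 and was called in no scaling (limma adjusted p = 0.0597 as deposited), but without SKP-derived array 2 it was -3.42 and was called under all 4 (limma adjusted p = 0.0163). Of the other light chains, Slc7a6 was at 8.78, 9.0 and 8.65 on average, and was called in no scaling. Slc7a8, Slc7a12 and Slc7a13 had higher nerve means (6.76, 4.45 and 4.54, against 5.84, 3.67 and 3.41 in SKPs) and did not pass under all scalings. Slc7a15 was called lower in nerve cells under cyclic loess and quantile normalisation only.

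Of the 4 cationic carriers, 1 rose and 1 fell in each kind of Schwann cell. Slc7a4, a relative with no settled substrate, was at 8.15, 7.98 and 7.82 in nerve, 7.92, 7.75 and 7.39 in SKP-derived Schwann cells and 6.67, 6.62 and 6.47 in SKPs. The 3 groups were tight and SKPs lay below both others. It rose by 1.40 in nerve (SE 0.17, limma adjusted p = 0.000125) and by 1.10 in SKP-derived Schwann cells (limma adjusted p = 0.000664). Slc7a2, an arginine carrier, was at 6.76, 7.25 and 6.41, at 6.92, 6.99 and 6.81, and at 8.65, 7.98 and 7.29. It fell by 1.17 in nerve cells (limma adjusted p = 0.0103). Its fall of 1.06 in SKP-derived cells was lost without any of 6 single arrays (nerve 1, SKP-derived 1, 2 or 3, or SKP 1 or 2, with a largest limma adjusted p of 0.0697 to 0.143). Slc7a1, the main arginine carrier of most cells, was at 8.47, 9.27 and 8.94, at 8.63, 9.46 and 8.88, and at 7.97, 8.74 and 9.71, and was called in no scaling. Slc7a3 had a nerve mean of 6.13 against 5.06 in SKPs and was called as deposited only.

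Among the 8 sodium-coupled carriers of Slc38, 2 rose and 1 fell in nerve cells, and 2 rose and 0 fell in SKP-derived cells. Slc38a1, a glutamine importer of neurons and other cells, was at 9.02, 8.64 and 8.74 in nerve, 8.84, 7.47 and 8.67 in SKP-derived Schwann cells and 5.92, 6.28 and 5.60 in SKPs. Both Schwann cell groups were above the SKPs, with SKP-derived array 2 the lowest of them. It rose by 2.87 in nerve (SE 0.34, 7.29-fold, limma adjusted p = 0.00012) and by 2.39 in SKP-derived cells (SE 0.34, 5.24-fold, limma adjusted p = 0.000474). Slc38a9, a lysosomal carrier that reports arginine to the growth kinase complex mTORC1, was at 9.28, 9.15 and 9.27, at 8.85, 9.28 and 8.87, and at 7.44, 7.52 and 8.08. It rose by 1.55 (SE 0.19, limma adjusted p = 0.000165) and 1.32 (SE 0.19, limma adjusted p = 0.000594). Slc38a2, a carrier that cells raise when amino acids run short, was at 11.39, 11.53 and 11.48, at 11.37, 11.69 and 11.53, and at 11.81, 12.03 and 12.22. It fell by 0.56 in nerve cells (SE 0.15, limma adjusted p = 0.00849). In SKP-derived cells it differed by -0.49 and was called in 3 scalings, but not after median centring (limma adjusted p = 0.102). Slc38a3, Slc38a4, Slc38a5, Slc38a6 and the lysosomal glutamine carrier Slc38a7 did not pass under all scalings. Slc38a7 was uneven in SKPs (8.29, 8.86 and 9.71), and without SKP array 1 it was lower under all 4 scalings by 1.02 in nerve cells (difference -1.02, limma adjusted p = 0.01) and by 1.23 in SKP-derived cells (difference -1.23, limma adjusted p = 0.00742).

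Of the 4 proton-coupled carriers, 1 rose and 1 fell in nerve Schwann cells, and 2 rose and 1 fell in SKP-derived Schwann cells. They held the largest rise of any member in SKP-derived cells. Slc36a2, which carries glycine, proline and alanine, was at 9.68, 8.67 and 9.16 in SKP-derived Schwann cells, 9.59, 8.74 and 8.14 in nerve Schwann cells and 5.17, 5.29 and 4.74 in SKPs. Both Schwann cell groups overlapped each other and lay far above SKPs. The rise was 4.10 in SKP-derived (SE 0.37, 17.2-fold, limma adjusted p = 3.56e-05) and 3.76 in nerve Schwann cells (SE 0.37, 13.5-fold, limma adjusted p = 4.66e-05). Slc36a1, its lysosomal relative, was at 9.64, 8.79 and 9.63 in SKP-derived cells, 9.34, 9.39 and 8.96 in nerve cells and 8.37, 8.21 and 8.72 in SKPs. It rose by 0.92 in SKP-derived cells (limma adjusted p = 0.0158), a call lost without SKP-derived array 1 or 3 or SKP array 2 (largest limma adjusted p 0.0544 to 0.0606), and in nerve cells it was called in 3 scalings. Slc36a4 was at 7.37, 7.78 and 7.35 in nerve, 7.01, 7.18 and 7.2 in SKP-derived Schwann cells and 8.52, 8.14 and 8.13 in SKPs. It fell by 0.76 and by 1.13 (limma adjusted p = 0.00317 and 0.000617). Slc36a3 stayed dim, with means of 5.87, 5.15 and 4.86.

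All 3 Slc43 genes fell in SKP-derived Schwann cells and 2 of them in nerve Schwann cells. Slc43a3, a carrier of purine bases, was at 6.99, 7.44 and 6.84 in nerve, 6.18, 7.32 and 7.2 in SKP-derived Schwann cells and 11.12, 9.91 and 9.57 in SKPs. It fell by 3.11 in nerve (SE 0.42, 8.63-fold, limma adjusted p = 0.000231) and fell by 3.30 in SKP-derived cells (SE 0.42, 9.87-fold, limma adjusted p = 0.000251). SKP array 1 was highest for this gene and for macrophage markers, and without it the falls were 2.65 and 2.85 (differences -2.65 and -2.85). The part of macrophages in the Slc43a3 level was not tested. Slc43a2, a carrier of large neutral amino acids, was at 7.24, 7.19 and 7.24, at 7.19, 6.56 and 7.21, and at 9.86, 10.09 and 8.14. It fell by 2.14 (SE 0.44, limma adjusted p = 0.0022) and fell by 2.37 (SE 0.44, limma adjusted p = 0.00217). SKP array 3 was well below the other SKPs, and without it the differences were -2.75 and -2.98. The dermal mesenchyme mean was also lowest in that array (10.43, against 12.01 and 11.94), and its part in the result was not tested. Slc43a1, a related carrier, was at 4.94, 5.26 and 4.93 in SKP-derived cells and 6.0, 5.92 and 6.16 in SKPs, and fell by 0.98 (limma adjusted p = 0.000617). Its nerve arrays were at 5.87, 5.64 and 5.87. There the difference of -0.24 was not called as deposited, but Slc43a1 was called lower in the 3 rescalings (-0.95 after cyclic loess, limma adjusted p = 0.000529).

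Neighbouring members did not all move the same way. In the RefSeq order of protein-coding genes 5 pairs of members are direct neighbours. Slc38a1, which rose, lies next to Slc38a2, which fell in nerve cells, and Slc38a2 lies next to Slc38a4, which did not pass under all scalings. Slc36a2 lies between Slc36a3 and Slc36a1, whose differences from SKPs were 1.02 and 0.80 in nerve cells against 3.76 for Slc36a2, and 0.29 and 0.92 in SKP-derived cells against 4.10. After cyclic loess the nerve differences were 0.29 and 0.62, against 3.61 for Slc36a2. Slc6a18 and Slc6a19, neighbours too, differed from SKPs by 1.13 and 1.22 in nerve cells and by 0.17 and 0.43 in SKP-derived cells. Their nerve differences were 0.42 and 0.61 after cyclic loess.

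SKP-derived and nerve Schwann cells differed from each other far less. Under all 4 scalings limma called 0 members higher and 0 lower in SKP-derived cells, where 0.483% of all genes were called higher and 0.407% lower. At an unadjusted limma p under 0.05 in every scaling, 1 member was higher (Slc7a5) and 3 were lower (Slc1a1, Slc6a14 and Slc6a4). The share of all genes that pass this looser threshold was not counted, so these counts are a description only. As deposited, 0 were called higher and 23 lower (all genes: 1.33% and 42.3%), beside the shift of -0.45 in the median gene. Of the 23, 21 lay below the median gene in level, as did 31 of all 53 members, and the same split over all genes was not made. Without nerve array 1, 2 or 3 that count was 15, 13 and 15. Slc1a1 was lower by 1.22 as deposited (difference -1.22, SE 0.22, limma adjusted p = 0.00357) and by 0.88 after cyclic loess (difference -0.88, limma adjusted p = 0.0776). Without SKP array 3, which enters through the shared spread and the rescalings, it was called under all 4 scalings (at most 0.031). Slc7a5 was higher by 0.94 (SE 0.36, limma adjusted p = 0.0594) and the arrays of both groups did not overlap. It too was called under all 4 without SKP array 3 (limma adjusted p = 0.00963, at most 0.0431). Slc6a15 was called higher only without SKP-derived array 3, as given above. Slc7a15, a light chain, was called higher in SKP-derived cells by 0.75 after cyclic loess and by 0.80 after quantile normalisation (limma adjusted p = 0.0334 and 0.0258), but not in the other scalings.

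**Figure D4:**
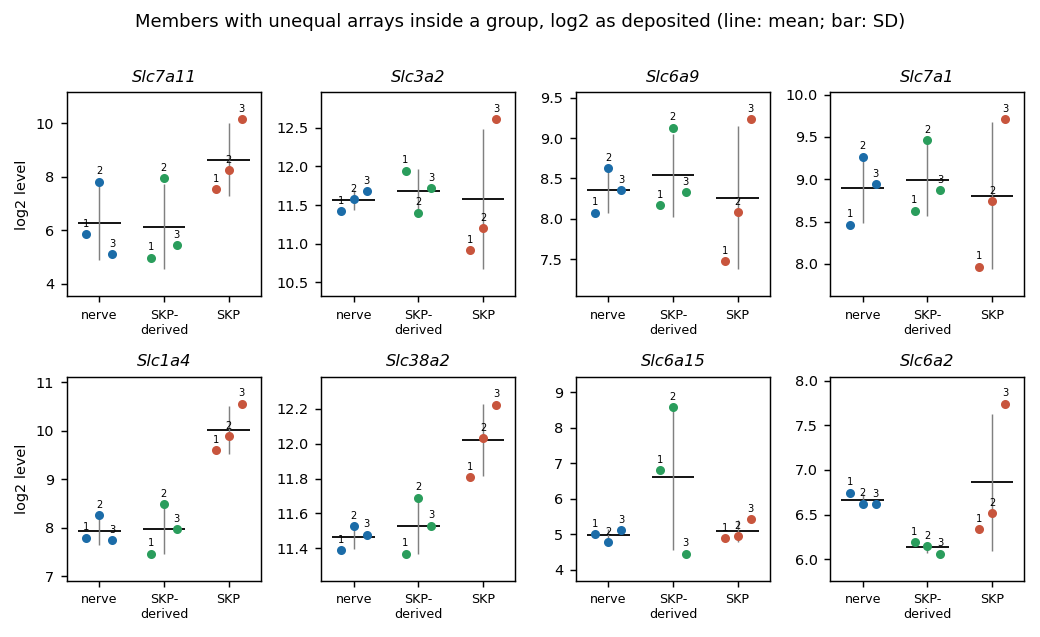
Panels show the log2 level as deposited on each numbered array, with group mean (line) and SD (bar, n = 3), for 8 members chosen, after their values were seen, for arrays that were unequal inside a group. SKP array 3 is the highest SKP array in all 8 panels, and array 2 is the highest Schwann cell array of both groups for Slc7a11, Slc6a9, Slc7a1, Slc1a4 and Slc38a2.

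Several members differed between arrays of 1 group. In SKP array 3, 5 members (Slc1a5, Slc3a2, Slc6a2, Slc6a9 and Slc7a11) exceeded both other SKP arrays by at least 1 on the log2 scale, which is 9.43% of members against 1.86% of all genes, and the count was 5 after cyclic loess as well. Slc7a11, Slc3a2, Slc6a9, Slc1a5, Slc1a4, Slc7a1, Slc7a5 and Slc38a2 are all known to respond to ATF4, the transcription factor that cells raise under amino acid shortage and other stress. This subset was chosen after the values were seen, so its height in SKP array 3 is a description only. Of the 9 measured genes of the ATF4 response outside the carriers, all but Cebpb had their highest SKP level in array 3. Trib3 was at 6.21, 6.92 and 10.58 in SKP arrays 1 to 3, and Ddit3 at 8.50, 8.45 and 11.75. Asns was at 8.71, 9.37 and 10.06 and Atf4 at 10.15, 10.36 and 11.13. The margin was small for Atf5 (9.02, 9.55 and 9.66) and Ddit4 (9.24, 9.33 and 9.52). Cebpb was lowest in array 3, at 8.79, 8.71 and 8.50. The mean of the 9 genes was 8.37, 8.63 and 9.99 in SKPs, against 8.93 to 9.04 in nerve and 8.54 to 8.83 in SKP-derived arrays.

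In array 2 of the SKP-derived Schwann cells, Slc6a15, Slc7a11 and Slc7a7 exceeded both other arrays of the group by at least 1 (5.66% of members, against 1.91% of all genes), and Slc38a1 and Slc6a8 lay at least 1 below them (3.77%, against 1.45%). After cyclic loess Slc6a9 joined the first set (4 members, 7.55%, against 2.21%), and of the second only Slc6a8 remained (1.89%, against 0.91%). The Schwann cell marker mean was 9.71 in that array, against 10.64 and 10.20 in the others of the group. Slc7a11 also stood out in array 2 of the nerve cells. The same arrays were the highest of their groups for these list genes, named after their values were seen: Asns (9.61 in nerve array 2 and 11.22 in SKP-derived array 2), Nqo1 (9.10 and 10.56), Bcat1 (8.37 and 9.34) and Gclc (8.74 and 9.73), and for the mean of dermal mesenchyme markers. Other genes of the same lists were lowest in SKP-derived array 2: Bcat2 at 7.18, Gclm at 7.95, Ddit4 at 8.50 and Atf4 at 10.06. The mean of the branched-chain list was highest in array 3 of both groups as deposited (7.96 in nerve and 8.04 in SKP-derived cells, against 7.88 and 7.89 in array 2). After cyclic loess array 3 was still highest in nerve cells (7.77, against 7.72 in array 2). In SKP-derived cells array 2 was then highest (8.17, against 8.09 in array 3). The part of these other cells or states in the transporter levels was not tested, and in a bulk sample a change in the share of cells of a type cannot be told apart from a change in RNA per cell.

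Enzymes that make or use the carried amino acids were counted by list, beside the shares of all genes given above (22.3% and 14.8% in nerve cells, 17.8% and 17.7% in SKP-derived cells). List medians follow for nerve and then SKP-derived cells. Over all genes they were 0.46 and -0.01 as deposited and 0.01 and 0.02 after cyclic loess. Gatm and Gamt, which make creatine, rose by 3.21 and 3.90 in nerve and by 2.95 and 3.38 in SKP-derived Schwann cells. Their list, which also holds serine, glycine and taurine enzymes, had 5 of 14 genes higher and 0 lower in nerve cells, and 7 higher and 0 lower in SKP-derived cells. Its median difference was 0.48 and 0.63 as deposited and 0.24 and 0.67 after cyclic loess. Psat1, an enzyme of serine synthesis, rose by 1.85 in SKP-derived cells, and it was the gene of this list that differed between the Schwann cell groups, higher by 1.59 in SKP-derived cells (limma adjusted p = 0.00333). Psph, the last enzyme of serine synthesis, rose by 1.68 and 1.62.

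Genes of glutathione and cystine handling were lower in Schwann cells at 8 of 13 in nerve cells and 9 of 13 in SKP-derived cells, with 1 higher in each. Their medians were -1.29 and -1.42 (-1.49 and -1.37 after cyclic loess). Nqo1, a quinone reductase, fell by 3.45 in nerve and fell by 2.91 in SKP-derived cells, and Gpx4, which protects lipids from peroxidation, fell by 1.93 and 2.18. Of the 9 genes of branched-chain amino acid breakdown, 7 fell and 0 rose in nerve cells and 5 fell and 1 rose in SKP-derived cells, with medians of -0.94 and -1.03 (-1.14 and -0.83 after cyclic loess). Bcat1, the transaminase of the pathway, fell by 3.13 and 3.15. Bckdhb, a subunit of the next enzyme, was higher in SKP-derived than in nerve cells by 0.66 (limma adjusted p = 0.0198).

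Of 12 measured glutamate, glutamine and GABA enzymes, 0 rose and 5 fell in nerve cells, and 1 rose and 6 fell in SKP-derived cells, with medians of 0.03 and -0.49 (-0.33 and -0.51 after cyclic loess, so the nerve sign depends on the scaling). Gfpt1, which uses glutamine to make amino sugars, fell by 2.13 and 1.88, and Glud1, glutamate dehydrogenase, fell by 1.30 and 1.58. The gene that rose was Abat, which breaks down GABA, at 7.78, 6.96 and 8.16 in SKP-derived Schwann cells and 6.36, 6.10 and 5.65 in SKPs (difference 1.60, limma adjusted p = 0.00193). Of 12 arginine and polyamine genes 3 rose and 4 fell in nerve cells and 3 rose and 5 fell in SKP-derived cells (medians -0.05 and -0.34, and -0.38 and -0.30 after cyclic loess). Ass1, which makes the arginine precursor argininosuccinate, fell by 3.94 and 3.69, and Sat1, which acetylates polyamines, rose by 2.78 and 2.31. Of 17 genes of amino acid sensing at mTORC1, 3 rose and 4 fell in nerve cells and 2 rose and 4 fell in SKP-derived cells (medians 0.13 and -0.01, and -0.10 and 0.09 after cyclic loess, with both signs turned). Lamtor5, a subunit of the lysosomal scaffold, fell there with differences of -1.20 and -1.34. Lamtor4, of the same scaffold, rose by 0.96 and 1.21, and Rheb of this list rose by 0.97 and 0.68.

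Of the 9 measured ATF4 response genes outside the carriers, 2 rose and 2 fell in nerve cells and 1 rose and 1 fell in SKP-derived cells (medians -0.53 and -0.46, and -0.75 and -0.58 after cyclic loess). Atf3, an early response factor, rose by 4.13 and 3.05, and Cebpb, a partner of ATF4, fell by 1.74 and 2.31. Of 18 other carriers of amino acids, peptides and vesicular transmitters, 3 rose and 0 fell in nerve cells and 4 rose and 2 fell in SKP-derived cells (medians 0.65 and 0.08, but -0.05 and 0.04 after cyclic loess). Slc18a2, which loads monoamines into vesicles, rose by 2.09 and 1.64, and Slc17a5, a lysosomal carrier of sialic acid, rose by 1.98 and 1.61. Slc29a4 of this list was at 6.49, 8.91 and 8.64 in SKP-derived cells. Its levels were 7.66, 6.65 and 6.40 in nerve cells and 5.16, 5.53 and 5.56 in SKPs.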

How the data were processed

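RNA of 9 cultured samples (3 groups of 3) was measured on Affymetrix Rat Gene 1.0 ST arrays. The authors deposited log2 values of 29214 features. The submitters' processing notes name RMA and Affymetrix Expression Console. The sources used here do not give versions, a genome build or whether the arrays were normalised together. No detection call was used, and precision is limited by the 3 arrays a group. Features with 1 symbol in the platform annotation (15310) were reduced to 14506 genes by the highest mean. The 323 features naming several symbols and the 13581 naming none did not enter.

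Group means were fitted to all 9 arrays with limma 3.58.1 in R 4.3.3 (lmFit, eBayes). The Benjamini-Hochberg adjustment ran over 14506 genes per comparison, and a call is an adjusted p under 0.05. The fit was tested on simulated data without a shift of scale between arrays, so that test does not bear on the choice of scaling. The 3 rescalings were computed over these genes. Cyclic loess and quantile normalisation remove a shift of all genes between arrays.

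The labels do not tie arrays to animals, so p-values measure the spread between these samples. Named members are, per comparison, the 6 largest rises and 6 largest falls under all 4 scalings, plus 14 fixed genes; 1 further gene is not reported here. Array values of other members were added after being seen. Members and lists were chosen with earlier results of these data known. Alternatives were other scalings, a filter on low levels, all features, 2-group fits, trended robust variances, a block on sample number and left-out arrays. Promoter windows are from RefSeq, assembly GRCr8.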

Additional observations from a re-analysis of the deposited data

How the results depend on the processing

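Counts of members called as deposited depended on the scaling. In nerve Schwann cells against SKPs, the 28 called higher became 14 after cyclic loess and 14 after quantile normalisation, and 8 when genes below the median level, most of these members, were left out. The 9 called lower became 15 after cyclic loess and 14 after quantile normalisation. In SKP-derived against nerve Schwann cells, the 23 called lower became 2 after median centring, 0 after cyclic loess, 1 after quantile normalisation and 1 without the dim genes. The 0 called higher became 1 after cyclic loess, quantile normalisation, a fit of only these groups, or without SKP array 3 and SKP-derived array 2 together, a setting added after seeing the data. Under that setting the 0 called lower under all 4 scalings became 1, Slc1a1. The cause was not tested. Leaving out 1 array at a time gave 25 to 29 and 8 to 11 members called higher and lower in nerve cells against SKPs, 9 to 12 and 9 to 12 in SKP-derived cells against SKPs, and 0 to 1 and 13 to 26 between the Schwann cell groups. Under all 4 scalings these ranges were 9 to 16 and 8 to 11, 8 to 11 and 8 to 11, and 0 to 1 and 0 to 1.

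Without any single array, 17 of the 22 members that changed in nerve cells and 15 of the 19 in SKP-derived cells kept their call. With the rescalings computed over all features instead of the genes tested, a setting also added later, 11 of 13 and 9 of 9 nerve calls and 8 of 9 and 10 of 10 SKP-derived calls were kept. The calls lost were Slc6a8 and Slc7a9 in nerve and Slc7a10 in SKP-derived cells. Sample numbers are shared between groups, but only some same-numbered samples deviated together (correlations over genes of -0.12 to 0.29), so they were not taken as pairs, and not every sample correlated best with its own number. With a replicate block, 12 members rose and 10 fell in nerve cells (Slc7a9 lost, Slc7a11 gained) and 8 and 10 in SKP-derived cells (Slc7a10 lost). Of the differences named, 25 were called under no scaling, 19 of these changed sign under some alternative, and 9 were called under at least 1, among them Slc3a2 against SKPs in nerve and in SKP-derived cells and Slc6a9 in nerve cells. For the others, 528 alternatives kept the call, 13 lost it and 11 gained it.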
